A study of Mus musculus with 8 samples.

Results

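The melanocortin system was followed in cortical mRNA of mice heterozygous for an Ago2 knock-in (L192P, genotype AGO2_L192P/+) and of wild-type animals (WT), each genotype with 4 libraries. Ago2 encodes Argonaute 2, which carries miRNAs to their target mRNAs. The knock-in allele was made with CRISPR/Cas9 in C57BL/6JUke embryos and holds the amino acid substitution together with a silent change of the guide's PAM, and the line was kept heterozygous on a C57/Bl6 background by outcrossing. Every cell of the knock-in mice carries the allele beside 1 wild-type copy, the study describes heterozygotes as under-represented among live births, so that the animals sampled are survivors, and the labels used here give no age or sex. The members were 9 genes chosen by name: the peptide genes Pomc and Agrp, the receptor genes Mc1r, Mc3r, Mc4r and Mc5r, the accessory protein genes Mrap2 and Mrap, and Atrn. All 9 were in the table of 55416 genes and had at least 1 count, and 7 of them passed the filter on low counts and received an adjusted p. Mrap2 had been singled out for its difference between the genotypes, so its values in that comparison are a description without a test, whereas the other 8 genes belong to the set by function.

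Melanocortins are short peptides, among them ACTH and the melanocyte-stimulating hormones, that are cut from the precursor proopiomelanocortin. They act on receptors coupled to the stimulatory G protein, which raises cAMP in the receiving cell, and agouti-related peptide blocks the brain receptors. In the brain the system is best known from the hypothalamus, where proopiomelanocortin neurons lower and agouti-related peptide neurons raise food intake through the melanocortin 4 receptor, whose signalling the accessory protein MRAP2 modulates.

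The study proposes miR-5121 as a potential regulator of Mrap2, so the sequences of this pairing are shown first. In the mature miRNA (RefSeq, GRCm38.p6, chr7:45126925-45126945, minus strand) capitals mark the seed, bases 2 to 8, and in the 3′ UTR of Mrap2 and of Mc1r (GRCm39, plus strand, chr9:87065665-87065687 and chr8:124135914-124135936) they mark the 7 bases complementary to that seed.
mmu-miR-5121: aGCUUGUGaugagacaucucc
Mrap2 3′ UTR: aactgtttCACAAGCatccgtgc
Mc1r 3′ UTR: cccatttgCACAAGCggtgtggg

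The canonical transcript of Mrap2 held 1 exact match to the seed, at base 789 of a 3′ UTR of 1218 bases, and an A follows the match. Mc1r, the receptor known from pigment cells, was the other member with a match, at base 726 of 2287, and there a G follows. The 3′ UTRs of the other 7 members, between 62 bases in Agrp and 4392 bases in Atrn, held 0 matches. The 7 letters CACAAGC, searched on the transcript strand, occurred in 1985 of 20669 canonical 3′ UTRs (9.604%), and in 215 of 2845 (7.557%) of those between 0.8 and 1.25 times as long as that of Mrap2. Of 1669 tested genes with a match, 13 were called higher and 13 lower in L192P (0.779% in each direction). Without a match these shares were 1.01% higher and 0.659% lower of 13206 tested genes, and the median log2 fold changes were 0.0057 with and 0.0024 without a match. A match describes the letters and is not evidence of binding. The study took miR-5121 from the miRNAs de-enriched on AGO2-L192P in cultured neurons, and Mrap2 from predicted targets that were higher in L192P cortex. A match of 7 letters is another definition of a target, so the shares above do not test that proposal.

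Total counts ran from 20396357 to 43575900 per library, and WT replicate 2 was the deepest. Replicates 1 of both genotypes differed from the other 6 libraries in sex-linked transcripts, which were not used to group samples. Values are normalized counts, that is counts scaled with DESeq2 size factors, and fold changes compare L192P with WT. Genes were called at a DESeq2 adjusted p under 0.05 over all genes tested, which 253 of 18627 genes met (1.36%), 147 of them higher (0.789%) and 106 lower (0.569%). Scaled by total counts instead, 168 were higher and 64 lower, a share of 72.4% higher in place of 58.1%, and with the replicate number as a block 228 were higher and 305 lower (42.8% higher). The labels do not say that the libraries came from separate animals, and p-values measure the spread between them. In whole tissue, fewer cells of a type and less RNA per cell cannot be told apart.

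Mrap2 (ENSMUSG00000042761, GRCm39 chromosome 9, 87025834 to 87066102, plus strand) was higher in L192P than in WT. Its normalized counts were 288, 264, 236 and 329 in L192P replicates 1 to 4 and 182, 180, 153 and 148 in WT replicates 1 to 4. Every L192P library lay above every WT library, with L192P replicate 4 highest and WT replicate 4 lowest. The mean was 279 ± 39.4 in L192P and 166 ± 18.0 in WT (SD, n = 4). This was 1.68-fold, or 0.74 ± 0.14 (SE) on the log2 scale, with a 95% interval of 0.47 to 1.02. Within libraries of the same number the log2 ratios were 0.66, 0.55, 0.62 and 1.15, so L192P was higher in all 4 pairs. The fitted value ran from 0.66 without L192P replicate 4 to 0.82 without L192P replicate 3 over 18 alternative settings. These settings refit the libraries by which Mrap2 was chosen. Among the 147 genes called higher in L192P it ranked 58 by fold change, near their median of 0.62. The raw counts behind these values were between 126 and 319 per library.

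**Figure D1:**
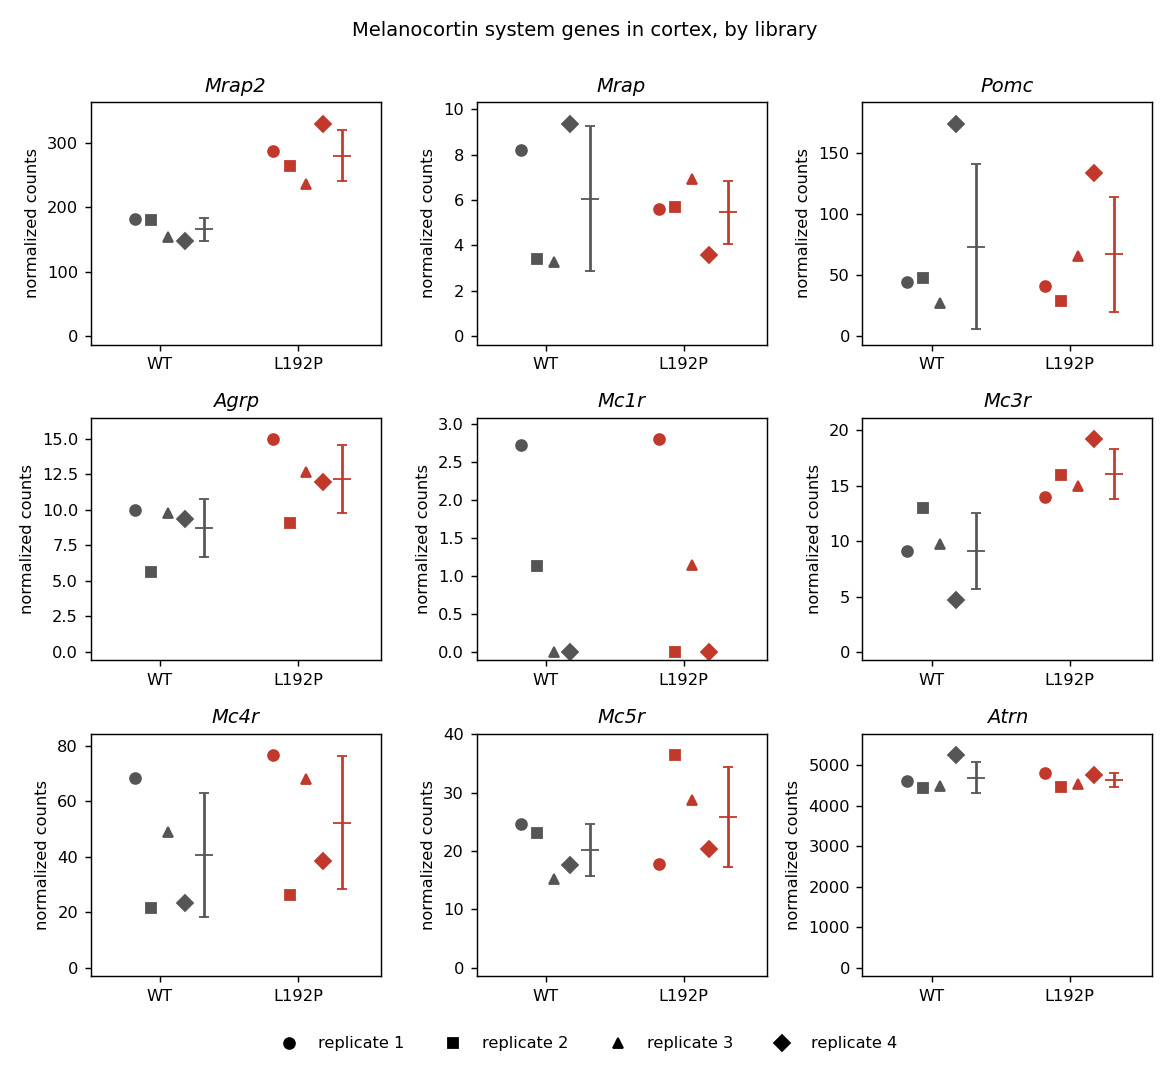
Normalized counts of the 9 melanocortin system genes in the 4 WT libraries (grey) and 4 L192P libraries (red), 1 panel per gene with its own linear axis. The marker shape gives the replicate number, and the bar beside each group is the mean with its SD (not drawn for Mc1r, which had at most 3 counts in any library). Mrap2 and Mc3r show no overlap between the genotypes, replicate 4 is highest for Pomc in both genotypes, and replicates 1 and 3 are highest for Mc4r in both.

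Of the 7 members with an adjusted p, only Mrap2 met the threshold, and 0 were called lower. Mrap2 was chosen by this contrast, so this does not count as a test of it. Among the other 8 genes, 0 of the 6 tested were called by DESeq2 and 0 had an unadjusted p under 0.05. edgeR and limma also called 0 of these genes, although edgeR did not test Agrp. Of all 18627 tested genes 253 were called by DESeq2 (1.36%) and 1758 had an unadjusted p under 0.05, so 0 of 6 does not set these genes apart. Apart from Mrap2, groups without overlap were seen for 1 of these 6 genes, Mc3r, beside 5.97% of all tested genes, and 3.01% with L192P above WT as in Mc3r. The median log2 fold change of the 6 tested genes other than Mrap2 was 0.36, beside 0.002 over all tested genes. The 95% interval of each of these 6 genes included 0.

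**Figure D2:**
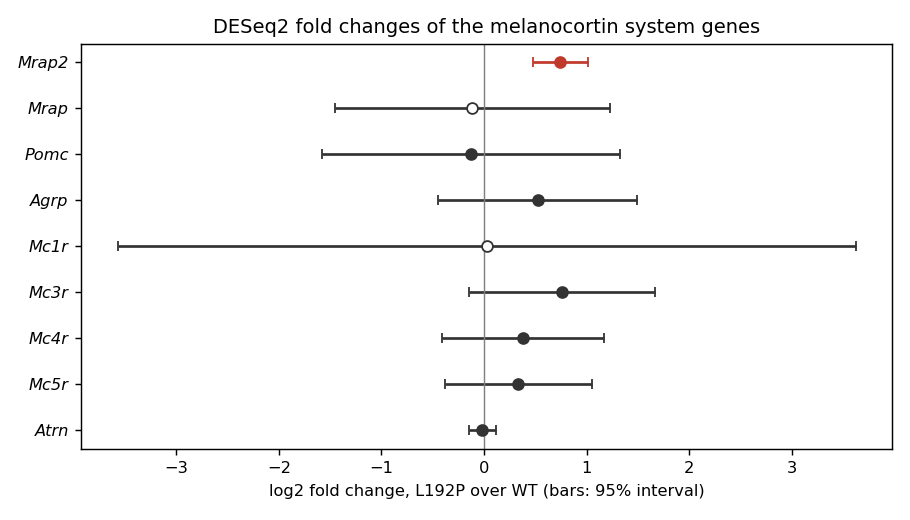
DESeq2 log2 fold changes of L192P over WT (horizontal axis) for the 9 genes, with bars for the 95% interval. Open circles are Mrap and Mc1r, which received no adjusted p, and red is Mrap2, at 0.74. The intervals of the other 8 genes all include 0, and that of Atrn (-0.15 to 0.11) is the narrowest.

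Both peptide genes were detected at low counts. Pomc, the precursor gene (ENSMUSG00000020660, chromosome 12, 4004944 to 4010642), had 41.1, 28.4, 65.7 and 134 normalized counts in L192P replicates 1 to 4 and 44.6, 48.0, 27.2 and 174 in WT replicates 1 to 4. Replicate 4 was the highest library of both genotypes, and the groups overlapped. The fold change was -0.12 ± 0.74 (log2, SE) with a 95% interval of -1.58 to 1.33 (DESeq2 adjusted p = 0.993). It turned to 0.74 without WT replicate 4 and was -0.70 without L192P replicate 4. The summed normalized counts of 8 pituitary markers, most abundantly Tshb and Prl, were 74.3 in L192P replicate 4 and 97.2 in WT replicate 4, against 27.7 to 61.5 and 29.3 to 40.1 in the other libraries of each genotype. The lowest sum was that of L192P replicate 3, whose Pomc count of 65.7 was exceeded only in both replicates 4. Prl, the prolactin gene, had 37.1 and 30.4 normalized counts in those 2 libraries and at most 13.0 elsewhere, and Lhb was at 0 in every library. Tshb did not share this pattern, with 19.2 normalized counts in L192P replicate 4, the lowest of all libraries, and 26.9 in WT replicate 4, below the 37.3 of WT replicate 1. The part of such RNA in the Pomc values was not tested.

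Agrp, which encodes the antagonist of the brain melanocortin receptors (ENSMUSG00000005705, chromosome 8, 106293326 to 106364065), had 14.9, 9.10, 12.7 and 11.98 normalized counts in L192P replicates 1 to 4. In WT replicates 1 to 4 it had 10.02, 5.65, 9.78 and 9.37. L192P was higher in all 4 same-numbered pairs, but L192P replicate 2 lay within the WT range. The fold change was 0.52 ± 0.50 (log2, SE) and the DESeq2 adjusted p was 0.865. Exact two-sided permutation of the libraries, which ignored the replicate numbers, gave p = 0.114. In the annotation 65.6% of the exon bases of Agrp lie opposite exons of Gm38250, 13.5% opposite Ctcf and 13.5% on the same strand as Gm5914. Whether reads were counted by strand is not given in the sources used here, so these counts cannot be assigned to Agrp with certainty.

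Of the receptors, Mc3r and Mc4r are the ones known from brain. Mc3r (ENSMUSG00000038537, chromosome 2, 172090412 to 172093034) had 14.0, 15.9, 15.0 and 19.2 normalized counts in L192P replicates 1 to 4 and 9.11, 13.0, 9.78 and 4.68 in WT replicates 1 to 4. The genotypes did not overlap, although L192P replicate 1 and WT replicate 2 lay within about 1 normalized count of each other. The mean was 16.0 ± 2.24 in L192P and 9.14 ± 3.42 in WT (SD, n = 4), or a difference of 0.76 ± 0.46 (log2, SE) with a 95% interval of -0.15 to 1.67. The DESeq2 adjusted p was 0.665. An exact two-sided permutation test of this gene alone gave p = 0.0286, the smallest that 4 against 4 unpaired libraries allow. That test shuffled the libraries freely and ignored the pairing by replicate number. At 4 to 23 raw counts per library the difference was not resolved after adjustment, and the fold change ran from 0.57 without WT replicate 4 to 1.01 without WT replicate 2.

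Mc4r, the receptor through which MRAP2 is best known to act (ENSMUSG00000047259, chromosome 18, 66990775 to 66993577), had 76.6, 26.2, 68.0 and 38.3 normalized counts in L192P replicates 1 to 4. In WT replicates 1 to 4 it had 68.3, 21.5, 48.9 and 23.4. Replicates 1 and 3 were high and replicates 2 and 4 low in both genotypes, and the groups overlapped over most of their range. L192P was higher in all 4 same-numbered pairs, by log2 ratios of 0.16, 0.27, 0.47 and 0.69. The fold change was 0.38 ± 0.40 (log2, SE), with a 95% interval of -0.41 to 1.17 and an adjusted p of 0.894 by DESeq2. With the replicate number as a block it was 0.39 ± 0.32, and no adjusted p was given.

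Mc5r, known from exocrine glands (ENSMUSG00000007480, chromosome 18, 68470575 to 68475517), had 17.8, 36.4, 28.8 and 20.4 normalized counts in L192P and 24.6, 23.2, 15.2 and 17.6 in WT replicates 1 to 4. The groups overlapped, and the fold change of 0.34 ± 0.36 (log2, SE) had an adjusted p of 0.895 by DESeq2. Mc1r (ENSMUSG00000074037, chromosome 8, 124133846 to 124137483) had 3, 0, 1 and 0 raw counts in L192P and 3, 2, 0 and 0 in WT. It was under 3 counts in 6 libraries and at 0 in 4 of them, so no difference was detectable at this depth, and exons of Gm38092 cover 17.9% of its exon bases on the opposite strand.

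The other accessory protein gene, Mrap, whose product is required by the ACTH receptor (ENSMUSG00000039956, chromosome 16, 90535095 to 90546673), had 6, 5, 6 and 3 raw counts in L192P and 9, 6, 3 and 8 in WT. The groups overlapped and no adjusted p was given. Atrn encodes attractin, a membrane protein that acts in agouti signalling (ENSMUSG00000027312, chromosome 2, 130748382 to 130872253). It had 4797, 4460, 4535 and 4750 normalized counts in L192P and 4603, 4449, 4484 and 5246 in WT replicates 1 to 4. The genotypes overlapped and the fold change was -0.02 ± 0.07 (log2, SE), with a 95% interval of -0.15 to 0.11 and an adjusted p of 0.986 by DESeq2. Its sign depended on the scaling, at 0.0075 with total-count size factors.

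On a scale that allows genes to be compared, CPM per kilobase of exon, where CPM are counts scaled to the same total in each library, the level of the members in WT fell in the order Atrn, Pomc, Mrap2, Mc4r, Agrp, Mc5r, Mc3r, Mrap and Mc1r. Atrn was at 14.4, Pomc at 2.24, Mrap2 at 2.02, Mc4r at 0.590 and Agrp at 0.310 in WT. Mc5r was at 0.205, Mc3r at 0.142, Mrap at 0.0771 and Mc1r at 0.0109, where 3 counts correspond to 0.0189 to 0.0404 depending on the library. The WT libraries separated Atrn from Pomc, Mrap2 from Mc4r and Mrap from Mc1r without overlap. The other neighbours in the order overlapped in WT, and of these only Mc3r and Mrap were separate in L192P. Pomc was above Mrap2 only in WT replicate 4 (5.26 and 1.76). In WT replicates 1 to 3 Pomc was at 1.39, 1.47 and 0.83 and Mrap2 at 2.26, 2.19 and 1.86. In L192P the mean of Pomc was 2.09, below that of Mrap2. The level of Mrap2 was 3.45 ± 0.477 in L192P and 2.02 ± 0.243 in WT (SD, n = 4), and its mean over all libraries was at percentile 53.7 of 17972 protein-coding genes with counts. Mc4r stood at percentile 33.9 and Atrn at percentile 85.4.

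**Figure D3:**
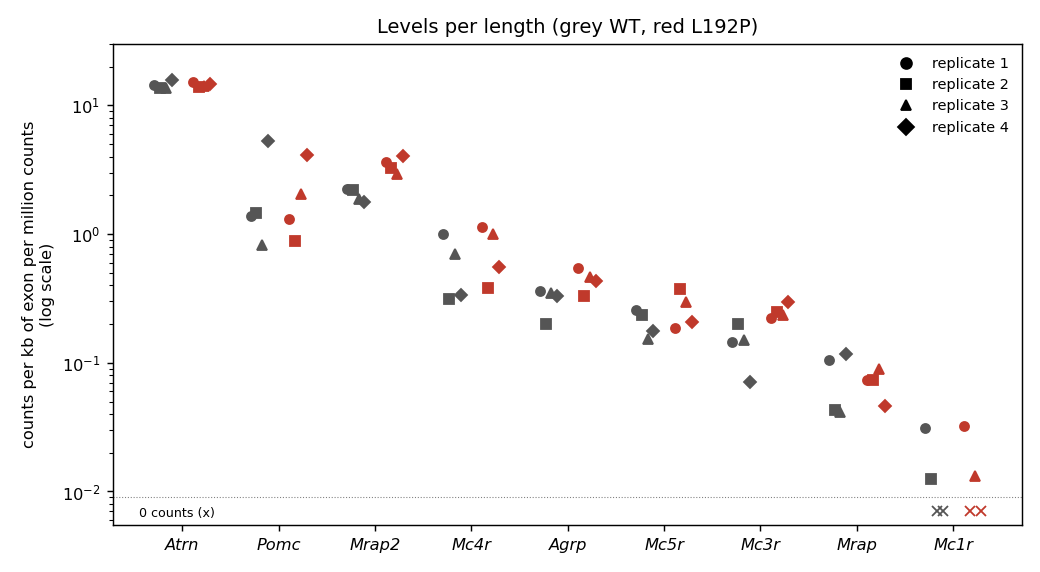
Levels of the 9 genes per library, in CPM per kilobase of merged exons on a log axis, ordered by the WT mean (grey WT, red L192P, marker shape for the replicate number). Crosses under the dotted line are libraries with 0 counts, all of them for Mc1r. Mrap2 lies at 1.76 to 4.04, above every library of Mc4r, and Pomc spreads across the range of Mrap2.

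Marker lists of other regions were read beside these genes, since the labels give cerebral cortex as the tissue. All 8 markers of cortical excitatory neurons were expressed, and 0 of them were called. Their summed normalized counts were 39194 to 44290 in L192P and 44812 to 46983 in WT, so the L192P sums lay entirely below WT. For 10 hypothalamus markers the sums were 860, 287, 1279 and 728 in L192P replicates 1 to 4 and 239, 158, 155 and 135 in WT replicates 1 to 4. L192P lay entirely above WT, Avp, Oxt and Otp of this list were called higher, 5 of the 10 were tested, and Kiss1 was at 0 in every library. Within WT, Mrap2 had the same order over the libraries as these sums. Within L192P, replicate 3 had the highest sum and the lowest Mrap2 count (236), and Pmch and Hcrt, with 262 and 178 normalized counts there and at most 16.8 in any other library, made up part of that sum. The part of hypothalamic RNA in the Mrap2 difference was not tested.

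**Figure D4:**
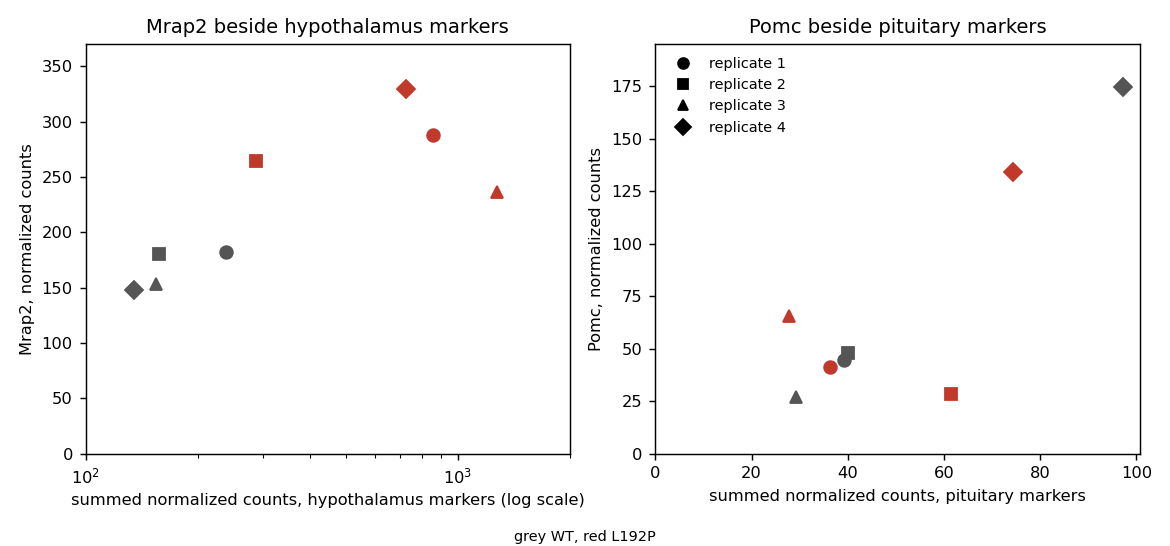
Left, Mrap2 (normalized counts) against the summed normalized counts of 10 hypothalamus markers (log axis), and right, Pomc against 8 pituitary markers (linear axes), for each library (grey WT, red L192P, marker shape for the replicate number). The L192P libraries lie above and to the right of WT for Mrap2, with replicate 3 furthest right (1279) at 236 counts, and replicate 4 of both genotypes lies furthest up and right for Pomc.

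The sums of thalamus markers were also entirely higher in L192P (2917 to 6467 against 2146 to 2768, 1 of 6 called, Calb2). The sums of striatum markers were entirely lower (26370 to 34122 against 34596 to 42773). This holds for the sums, and single markers could overlap, such as Plekhg1 of the thalamus list (316 to 653 normalized counts in L192P and 380 to 515 in WT). Among 7 markers of GABAergic interneurons 1 was called higher, Gad2, and the sums overlapped at 30141 to 33555 in L192P and 28095 to 32221 in WT. Melanocyte markers summed to 21.5 to 44.3 in L192P and 15.2 to 69.5 in WT, and adipocyte markers to 4.55 to 18.4 and 8.19 to 22.0, with 0 called in either list. Sums for hippocampus, choroid plexus, microglia and pituitary overlapped with 0 called. Whether any of these moved the melanocortin genes was not tested.

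The genes around Mrap2 were read as a comparison of position. Of 6 protein-coding genes whose start lies within 500 kb of that of Mrap2, 0 were called by DESeq2, and 1 (Cep162) had an unadjusted p under 0.05. The log2 fold changes were -0.13 for Me1, -0.11 for Prss35, 0.02 for Snap91, 0.10 for Ripply2, -0.04 for Cyb5r4 and 0.27 for Cep162. Cep162, a centrosomal protein gene, was the only one of them that starts downstream, at 111.8 kb. It lies on the minus strand, so that its end, at base 87071630, faces the end of Mrap2 at base 87066102. Cep162 had an adjusted p of 0.391 by DESeq2 and overlapped between the genotypes.

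A set of 5 lists with 62 genes in all covered the rest of the pathway, of which 58 were tested and 5 were called, 3 higher and 2 lower, beside 1.36% of all tested genes. Their median log2 fold change was -0.002. The lists were chosen with earlier results of these data known, so the 5 calls are a description and do not test the pathway. The lists were partners of the melanocortin receptors, enzymes that process proopiomelanocortin, other receptors that MRAP2 binds, cAMP signalling and the leptin and feeding circuit. Leaving out 1 library gave 9 calls without WT replicate 1, 4 without L192P replicate 1 or 2, and 2 without any 1 of the others.

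Among 5 partners, 1 of the 3 tested was called. Sdc3, the gene of the cell-surface proteoglycan syndecan 3, had 4902 ± 199 normalized counts in L192P and 4272 ± 183 in WT (SD, n = 4), which was higher by 0.20 on the log2 scale (DESeq2 adjusted p = 0.0439). It passed in 7 of 18 alternatives, with adjusted p-values from 0.00164 to 0.291, and of the 8 fits that left out a library only the one without L192P replicate 1 kept it. Mgrn1, a ubiquitin ligase gene and the most abundant partner, had a log2 fold change of 0.03 and an adjusted p of 0.954. Asip, the agouti gene, and Mc2r, the ACTH receptor gene, had at most 6 raw counts in any library and no adjusted p. All 7 genes for the processing of proopiomelanocortin were tested and 0 were called, with 1 at an unadjusted p under 0.05, a median of -0.01 and log2 fold changes between -0.13 and 0.10. The most abundant of them was Cpe, carboxypeptidase E, at -0.04. Of the 5 other receptors 3 were tested and 0 were called, with 0 at an unadjusted p under 0.05, log2 fold changes between 0.09 and 0.35, and 0.09 for Mchr1, the most abundant.

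In cAMP signalling 25 of 25 genes were tested, 1 was higher and 2 were lower, all 3 adenylyl cyclases. Adcy1, a calmodulin-stimulated cyclase, had 14183 ± 1170 normalized counts in WT and fell to 11374 ± 655 in L192P (SD, n = 4), or -0.32 ± 0.07 (log2, SE), with an adjusted p of 0.00267 by DESeq2. It passed in 16 of 18 alternatives, among them all 8 fits without 1 library, and edgeR (adjusted p 0.0752) and limma-trend (0.0834) were the exceptions. Adcy3, a cyclase of primary cilia, fell from 858 ± 40.1 to 686 ± 60.1 (log2 fold change -0.32, adjusted p 0.0188), and it passed in 10 of 18 alternatives, but of the fits without 1 library only those without a replicate 1, with adjusted p-values elsewhere up to 0.162. Adcy7 rose from 114 ± 14.6 to 173 ± 30.05 (log2 fold change 0.60, adjusted p 0.0287), and it passed in 9 of 18 alternatives, but of the fits without 1 library only those without L192P replicate 2 or WT replicate 1, with adjusted p-values elsewhere up to 0.237. Both highest values came without L192P replicate 3. Exons of Cenpo cover 19.0% of those of Adcy3 and exons of Brd7 cover 13.0% of those of Adcy7 on the opposite strand. The other 22 genes of the list were not called, among them Prkar1b, the most abundant, at -0.11, and the median of the list was -0.04.

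In the leptin and feeding circuit 1 of 20 genes was called. Irs4, an insulin receptor substrate gene, had 173, 132, 79.6 and 161 normalized counts in L192P replicates 1 to 4 and 54.6, 10.2, 22.8 and 15.2 in WT replicates 1 to 4. The groups did not overlap, with L192P replicate 3 and WT replicate 1 closest to each other. The fold change was 2.41 ± 0.56 (log2, SE), with an adjusted p of 0.00385 by DESeq2. It passed in all 18 alternatives, between 2.12 and 3.14 on the log2 scale. Within WT the library with the highest sum of hypothalamus markers, replicate 1, had the most Irs4, and within L192P the library with the highest sum, replicate 3, had the least. Pmch and Hcrt, with 262 and 178 normalized counts in L192P replicate 3, made up part of that sum. Single markers differed in their order, with Avp highest (459) and Trh lowest (112) of the L192P libraries in replicate 3. The part of hypothalamic RNA in the Irs4 difference was not tested either. Ntrk2, the receptor gene of brain-derived neurotrophic factor and the most abundant of the list, had a log2 fold change of -0.05, and the list had a median of 0.03.

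**Figure D5:**
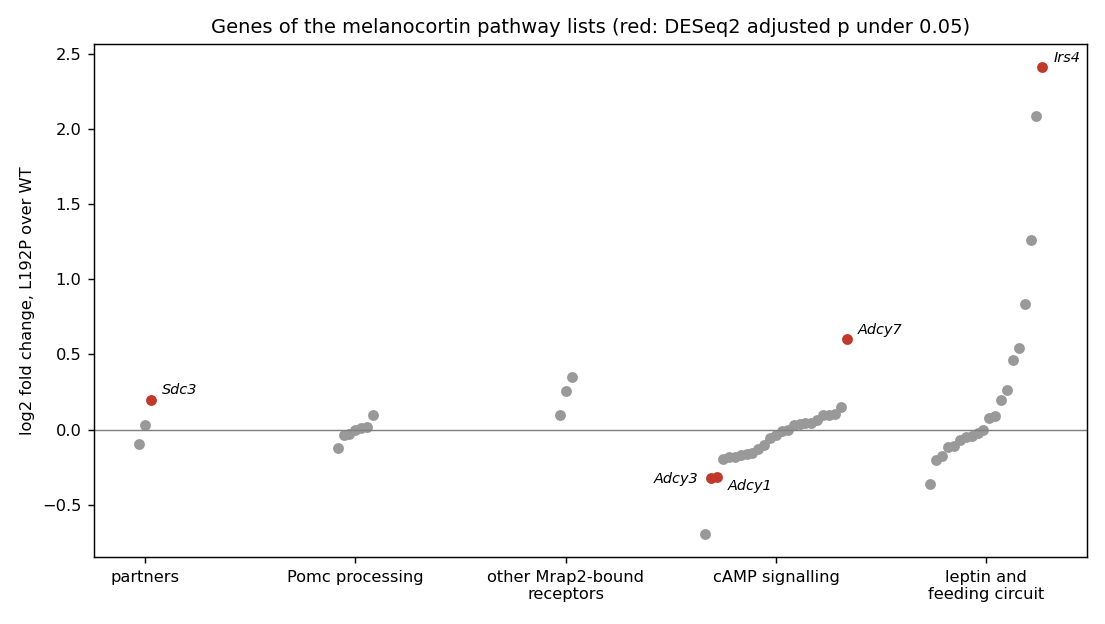
Log2 fold changes of L192P over WT for the 58 tested genes of the 5 pathway lists, 1 point per gene, sorted within each list. Red points passed a DESeq2 adjusted p under 0.05: Sdc3, Adcy7 and Irs4 above 0, and Adcy1 and Adcy3 below 0. The medians of the lists lie between -0.04 and 0.26.

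With the replicate number as a block, 533 of 12536 genes were called (4.25%, 228 higher and 305 lower), and the calls in the lists rose from 5 to 12, with 5 higher and 7 lower. The main fit tested 18627 genes, so the 12 and the 5 calls come from fits with different numbers of tested genes. The 5 genes above remained among the 12. The added ones were Adcy2, Adcy5, Gnal and Rapgef4 in cAMP signalling, all lower, with log2 fold changes between -0.20 and -0.16. The sums of striatum markers were lower in L192P as well (26370 to 34122 against 34596 to 42773), and their part in the lower cAMP signalling genes was not tested. In the feeding circuit they were Npy (-0.37, DESeq2 adjusted p 1.53e-05 with the block and 0.0519 without), Npy2r (0.59, adjusted p 0.0152 and 0.647) and Htr2c (0.28, adjusted p 0.0354 and 0.260). Mrap2 had a log2 fold change of 0.74 in this fit, and of the other members only Atrn was given an adjusted p (0.964 by DESeq2).

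The profile of Mrap2 over the 8 libraries was compared with that of 13421 genes with a mean of at least 50 normalized counts, by the mean absolute difference of centred log2 values. The nearest were Nek10 at 0.057, Rsph4a at 0.083, Wdr6 at 0.127, Tac2 at 0.128 and Ahi1 at 0.132, beside a median of 0.382 over all compared genes. Nek10 had 93.5 ± 12.9 normalized counts in L192P and 54.3 ± 5.56 in WT (SD, n = 4), and Ahi1, the most abundant of these genes, had 5695 ± 370 and 3562 ± 590. All 5 were higher in L192P in this contrast, with log2 fold changes between 0.53 and 0.77, which follows from the way they were found. Of the other members, Atrn and Pomc were abundant enough to compare, at 0.381 and 0.705, so Pomc was among the genes least like Mrap2.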

How the data were processed

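The deposited values were raw counts per gene for 8 cortex libraries, which the authors made from stranded mRNA libraries with STAR on GRCm39 and featureCounts, without pooling replicates. The authors also deposited a normalized signal table, which DESeq2 size factors turned back into the counts with a largest difference of 2.91e-10. The strand setting and annotation release are not given in the sources used here. The sources name 2 versions each of STAR and DESeq2.

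DESeq2 1.42.0 in R 4.3.3 was fitted on the counts of all libraries with genotype alone and with Cook and independent filtering at 0.05 (the study names the tool and the threshold, not the design), and calls were made under 0.05 after Benjamini-Hochberg adjustment over 18627 genes. Fold changes were not shrunk. Log ratios of same-numbered libraries used a pseudocount of 1. The members, lists and markers were chosen with earlier results of these data known. The calls within the striatum marker list are not reported here. The text names the members, the called and most abundant gene of each list, genes within 500 kb of Mrap2, the 5 nearest profiles and, with values seen, genes called with the block. Asip was matched by its identifier, since the table lists it as a. Levels used merged exons of GENCODE M39 on GRCm39, where 98.8% of identifiers were found.

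Deviations from the group means, over 13422 genes, correlated at 0.628, 0.381, 0.233 and 0.327 between same-numbered libraries and at -0.375 to 0.144 in the 12 other pairs. The numbers, taken from the labels, were therefore read as pairing the libraries in the block fits and in the ratios of same-numbered libraries. The main fit, with its calls, intervals and adjusted p-values, used genotype alone and ignored this pairing. Same-genotype libraries differed by more than sampling noise (chi-square per degree of freedom 5.52 to 22.6). Depth was 20396357 to 43575900 counts, and a floor of 3 counts covers counting error only. Alternatives were edgeR 4.0.16 (quasi-likelihood), limma 3.58.1 (trend), size factors from TMM or total counts, 10 or more counts in 4 libraries as a filter, independent or Cook filtering off, the replicate block, each library left out, both replicates 1 left out, and the longest transcript for levels. The fit was tested on simulated counts of 55416 genes with 200 changed by 1 log2 unit, of which 190 were recovered (95%), with 24 false among 214 calls (11.2%). The changed genes were drawn from those with a mean of at least 50 normalized counts, and no pairing of libraries was simulated. Of the members only Mrap2, Pomc and Atrn reached that mean, so the recovered share does not cover the others.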

Additional observations from a re-analysis of the deposited data

Results flagged for a closer look

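In each group of 4 libraries the gap between an extreme library and its nearest neighbour was taken as a share of the group's range and set against Dixon's 95% critical value. This singled out a library in 6 of 84 groups, and about 4.2 would be so by chance. Pomc had 174 normalized counts in WT replicate 4, against 27.2 to 48.0 in the other WT libraries (gap share 0.858). The sum of pituitary markers was 97.2 in the same library, against 29.3 to 40.1 (0.841). Agrp had 5.65 normalized counts in WT replicate 2, against 9.37 to 10.02 (0.851). For Adcy1, L192P replicate 2 had 10393 normalized counts and the others 11659 to 11739 (0.941). The sum of hippocampus markers was 2546 in L192P replicate 3, against 1162 to 1352 (0.863), and WT replicate 3 was also the highest WT library, at 2396. The sum of microglia markers was 3785 in WT replicate 1, against 4787 to 4910 (0.891).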

How the results depend on the processing

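The log2 fold change of Mrap2 stayed between 0.66 and 0.82 over 18 alternatives, and the other members were called in 0 of them. Several could not be called in many of these, since an adjusted p was given to Mc1r in 1, Mrap in 3, Agrp in 10 and Mc3r in 13. The count of all called genes, 253, became 53 with edgeR, 51 with limma-trend, 533 with the replicate block, 500 without both replicates 1, and between 112 and 496 when 1 library was left out (without WT replicates 4 and 1). The pathway calls, 5, became 1 with edgeR or limma-trend, 3 with independent filtering off, 8 without both replicates 1, 12 with the replicate block, and 2 to 9 when 1 library was left out. A fit of edgeR with the replicate block, added after seeing the data, gave 537 and 10. Beyond the calls named in the report, the block changed no call among the genes named that it gave an adjusted p. The genes to which it gave none included Nek10, Oxt, Otp and the members Pomc, Agrp, Mc3r, Mc4r and Mc5r. With edgeR 44 genes were higher and 9 lower (83.0% higher). By the longest transcript the WT level of Agrp was 0.455 and that of Atrn 21.7. The causes of these shifts were not tested. Mrap, Mc1r, Mc3r and Agrp had at most 23 counts in a library, which limits what could be detected.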
